A study of Homo sapiens with 2 samples.

Results

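The 5 genes described here are TCF3, TCF4 and TCF12, which encode the E proteins, and ID2 and ID3, which encode members of the ID family of inhibitors. Accessible chromatin near them was taken from a list of regions found by ATAC-seq, in which a transposase inserts sequencing adapters into open DNA. A region was counted for a gene if its midpoint lay within 50 kb of the gene's span in hg19. Of the 23612 regions in the list, 19 met this rule: 12 at TCF4, 4 at TCF12, 2 at ID2, 1 at ID3 and 0 at TCF3. Both libraries came from cultures of GM12878, with 50000 cells in each and no treatment recorded. GM12878 is an established lymphoblastoid line of B lymphocytes transformed by Epstein-Barr virus. The 2 libraries form 1 group, and 1 list was deposited for both, so no conditions or cultures could be compared. The list has no read counts, so the depth of each library is unknown. Its deposited name holds the letters idr and FilMappMitoBlack. They are read here as a cut on repeat between replicates and as filters for mappability, mitochondrial and blacklisted sequence. For these reasons a stretch without a region is not read as closed chromatin. The labelled cell type was not checked against its markers, because hg19 positions were taken for these 5 genes only.

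E proteins are basic helix-loop-helix transcription factors. They bind DNA as pairs at the E-box, whose letters are CANNTG, and in lymphocytes they drive the commitment to the B and T lineages and the rearrangement of antigen receptor genes. ID proteins have the helix-loop-helix but lack the basic part that touches DNA, so that an E protein paired with one of them cannot bind. The balance between both families is known to set lymphocyte fate.

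The start of the gene span lay within a listed region at 3 of the 5 genes, TCF12, ID2 and ID3. At TCF3 and TCF4 it did not, although TCF4 had 12 regions in its body. Only this start was looked at for each gene, and TCF4 and TCF12 have further RefSeq starts that were not placed on the regions. The share of all gene starts that lie in a region was not computed, so 3 of 5 is a count only. The sequences below are the 300 bases at the RefSeq start of ID2 and ID3, which have 1 such start each and a region over the gene start, and of TCF3, which has 1 start and no region near it. Each runs from 250 bases before the start to 50 after it, 5′ to 3′ on the gene's strand, in GRCh38.p14. E-box letters are in capitals.
ID2 promoter (chr2:8681806-8682105, plus strand): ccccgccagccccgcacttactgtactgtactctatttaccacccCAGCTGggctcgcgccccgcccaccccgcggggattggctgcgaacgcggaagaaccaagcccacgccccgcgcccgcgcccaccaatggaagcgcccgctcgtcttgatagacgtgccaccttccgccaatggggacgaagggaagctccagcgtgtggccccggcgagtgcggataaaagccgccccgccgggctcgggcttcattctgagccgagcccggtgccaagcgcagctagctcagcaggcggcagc
ID3 promoter (chr1:23559452-23559751, minus strand): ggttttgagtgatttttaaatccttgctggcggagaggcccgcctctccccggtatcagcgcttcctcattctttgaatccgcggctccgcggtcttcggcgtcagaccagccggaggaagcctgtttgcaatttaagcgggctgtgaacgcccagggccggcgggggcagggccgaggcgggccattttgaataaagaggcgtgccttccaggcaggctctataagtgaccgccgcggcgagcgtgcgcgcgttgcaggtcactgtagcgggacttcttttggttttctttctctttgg
TCF3 promoter (chr19:1652566-1652865, minus strand): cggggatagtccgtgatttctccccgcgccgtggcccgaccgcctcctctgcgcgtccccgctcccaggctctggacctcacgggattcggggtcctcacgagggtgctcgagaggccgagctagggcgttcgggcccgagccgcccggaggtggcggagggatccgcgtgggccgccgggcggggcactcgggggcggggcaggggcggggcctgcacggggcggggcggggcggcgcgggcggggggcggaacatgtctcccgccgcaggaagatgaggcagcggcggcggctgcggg

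The ID2 window held 1 E-box, CAGCTG, beginning at base 46 from its 5′ end. The ID3 and TCF3 windows held 0. The search took CANNTG, which reads the same on both strands, and 68.7% of the 35116 such windows in the RefSeq table hold at least 1. The variants that E proteins are known to prefer, with the letters CAGCTG or with CAGGTG (on the opposite strand CACCTG), were found in the ID2 window among the 3 printed and in 34.5% of all windows. All 3 windows were rich in CpG dinucleotides. The TCF3 window had 43, more than 95.0% of all windows, the ID2 window 33 and the ID3 window 27, where the median of all windows was 14. The builds differ, so the bases of these windows were not placed on the listed regions.

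TCF4 was the locus with most regions, and all 12 had their midpoint inside the gene. TCF4 encodes an E protein that is required for plasmacytoid dendritic cells and is also active in B cells, and it is not the Wnt pathway factor TCF7L2, which has shared its name. The gene spans 413.6 kb on the minus strand in band 18q21.2 (chr18:52889562-53303188). With its flanks, the window held 23.4 regions per Mb, against 7.01 per Mb on chromosome 18 as a whole, a ratio of 3.33. The flanks themselves held 0 regions, so the same 12 were found when they were shortened to 25 kb or widened to 100 kb. The midpoint of the next region lay 102.6 kb beyond the window on the downstream side and 296.2 kb beyond it on the upstream side.

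Each region carries the authors' score, a whole number that is at least 541 and at most 1000 in the list. No header or label names the scale. Its values, and the letters idr in the name of the list, have the form of a capped measure of how well peaks repeat between replicates. Of the 12 regions at TCF4, 4 were at the cap of 1000, where 60.1% of all regions and also 60.1% of those on chromosome 18 were. The 4 regions at the cap all lay in the 206.8 kb of the gene next to its end. This stretch held 8 regions, with scores from 559 to 1000 and a median of 999. The equally long stretch next to the gene start held 4 regions, with scores from 636 to 808 and a median of 799.5. The stretches were set after the positions were seen, and no test was made of the difference.

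The widest region of TCF4 spanned 1626 bp at the score cap, 314.0 kb into the gene (chr18:52988423-52990048). It was wider than 92.5% of the list. A second wide region at the cap, of 1256 bp, lay 367.4 kb into the gene (chr18:52935137-52936392). The lowest score at TCF4, 559, belonged to its narrowest region, of 375 bp, 220.5 kb into the gene (chr18:53082548-53082922). Thus 1 gene body held regions near both ends of the list's range of scores, and widths on both sides of the list's median of 756 bp.

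The region nearest to the start of TCF4 had its closer edge 29.7 kb inside the gene, with a width of 534 bp and a score of 636 (chr18:53272924-53273457). No region lay at the start of the span itself. RefSeq lists 10 start windows for TCF4, with between 1 and 28 CpGs each. E-box letters were in 7 of the 10, close to the 68.7% of all windows. None of the 10 held the variants preferred by E proteins, which 34.5% of all windows hold. Windows of 1 gene are not independent, so these are counts only. The 10 windows of TCF4 are in another build and were not matched to the regions inside the gene. Some of these starts may therefore lie in a listed region.

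Near its end, TCF4 carried the only group of 3 or more regions at the 5 genes, where regions at most 10 kb apart were joined. Its 3 regions spanned 13.8 kb, beginning 13.9 kb inside the gene's end (chr18:52903434-52917190). They were 476, 541 and 413 bp wide, with scores of 1000, 713 and 933. Joined at 5 kb, or with only the regions at the cap, they formed no such group. The other 9 regions of TCF4 had no neighbour within this distance. The longest interval between regions inside the gene was 79.2 kb, or 19.2% of its span.

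**Figure D1:**
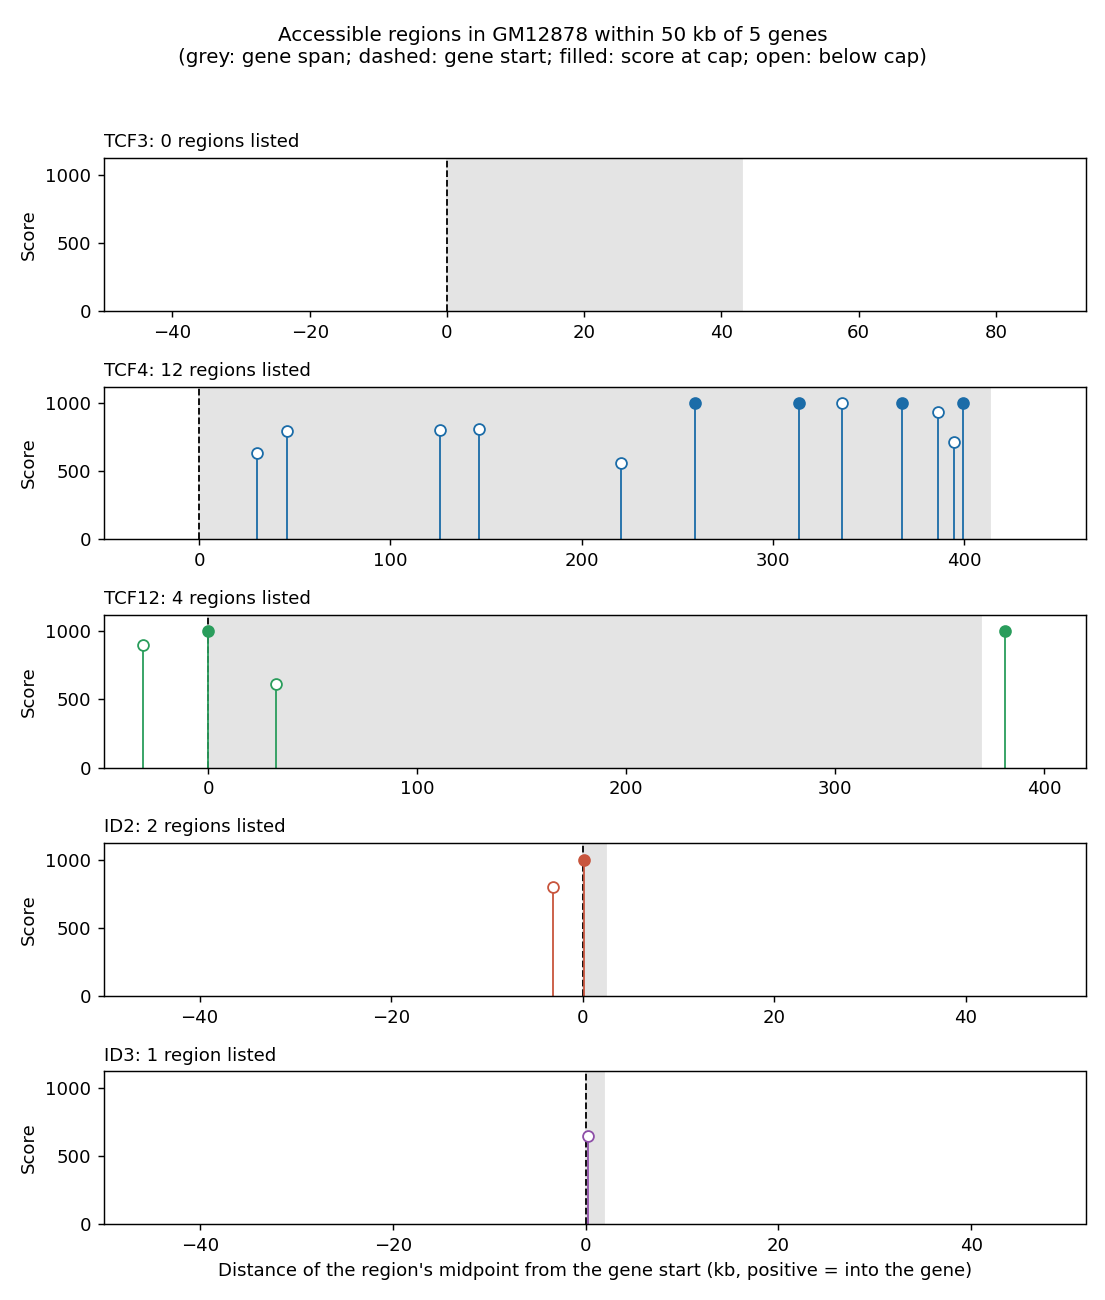
Position and authors' score of each listed region at the 5 genes, with the distance of its midpoint from the gene start in kb on the x axis (scaled to each gene) and the score on the y axis. Filled points are at the cap of 1000 and open points below it (1 of them, at TCF4, has a score of 998); the 4 filled points of TCF4 lie between 259.6 and 399.5 kb from its start, and the TCF3 panel is empty.

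TCF12 differed from TCF4 in having a wide region over the start of its span and almost no region in its body. The further RefSeq starts of both genes were not placed on the regions, so only the spans are compared. It encodes the E protein known best from thymocyte development, and spans 369.9 kb on the plus strand in band 15q21.3 (chr15:57210833-57580714). The region over the start was 1835 bp wide and at the score cap (chr15:57209886-57211720). It was the widest of the 19 and wider than 95.3% of the list. RefSeq lists 5 start windows for TCF12, of which 2 held E-box letters and 0 the variants preferred by E proteins. The shares of all windows were 68.7% and 34.5%, in that order, and these too are counts only. The CpG counts of the 5 windows ran from 1 to 39.

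The other 3 regions of TCF12 lay away from the start. One of 873 bp with a score of 897 lay 31.4 kb upstream (chr15:57179020-57179892). One of 468 bp with a score of 610 lay 32.5 kb into the gene (chr15:57243090-57243557). The last, of 634 bp and at the cap, lay 381.5 kb from the start and so beyond the end of the gene (chr15:57592037-57592670). The rest of the gene body was bare of regions: the interval between the last pair was 348.5 kb long and took in 91.2% of the gene. Of the 518 intervals on chromosome 15, 55 (10.6%) were at least as long, and together they made up 53.9% of the chromosome between its first and last region.

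The window of TCF12 held 8.51 regions per Mb, against 5.06 per Mb on chromosome 15 as a whole. Within the gene spans the difference between TCF4 and TCF12, genes of similar length, was larger, at 12 midpoints in TCF4 and 1 in TCF12. The region over the start of TCF12 counts as outside by its midpoint, which lies 0.03 kb upstream. Nothing in the list gives an error for these counts, and they were not tested.

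TCF3 had no listed region within 50 kb on either side. It encodes the E protein that is needed for the first steps of B lineage commitment, and spans 43.0 kb on the minus strand in band 19p13.3 (chr19:1609289-1652328). The nearest regions were both at the score cap. The one on the upstream side, 852 bp wide, lay 159.9 kb from the gene start (chr19:1812221-1813072), and the one on the downstream side, 1126 bp wide, lay 161.1 kb from it (chr19:1490136-1491261). Between them lay 321.0 kb without a region, which holds the whole gene. The authors numbered the regions in order of position, and 0 numbers were skipped across the window of TCF3 or of any of the other 4 genes. Numbers given after filtering would leave no gap, so this does not tell whether a region was removed there.

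The empty stretch at TCF3 was longer than most on its chromosome. Of the 522 intervals between neighbouring regions on chromosome 19, 35 (6.70%) were at least as long. These 35 together made up 41.0% of the chromosome between its first and last region. Chromosome 19 as a whole held 8.85 regions per Mb. The next protein-coding genes to TCF3 in the RefSeq table are ONECUT3 upstream and UQCR11 downstream.

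**Figure D2:**
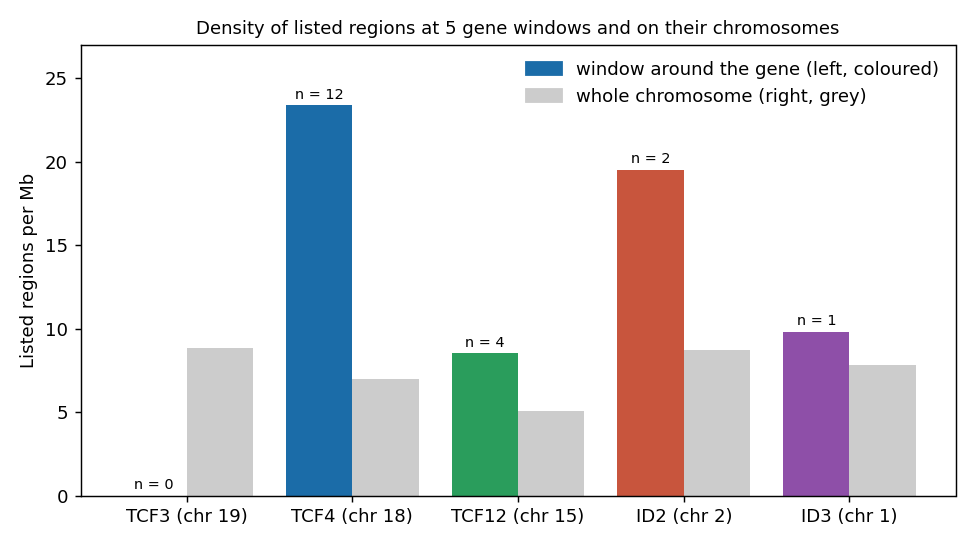
Listed regions per Mb in the window of each gene (coloured bars, with the number of regions above them) and on its whole chromosome (grey bars). With these flanks of 50 kb, TCF4 has the highest bar, at 23.4 per Mb, whereas with flanks of 25 kb ID2 would be higher, at 38.1 per Mb; TCF3 has no bar, and the bars of ID2 and ID3 rest on 2 and 1 regions.

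Both ID genes are short, and each had a region over its start. ID2 encodes an inhibitor needed for innate lymphoid and natural killer cells, and spans 2.47 kb on the plus strand in band 2p25.1 (chr2:8822113-8824583). Its start lay in a region of 804 bp at the score cap (chr2:8821856-8822659). A second region, of 409 bp with a score of 798, had its midpoint 3.08 kb upstream (chr2:8818832-8819240), and 2.62 kb separated the pair. The window held no further region. The closest outside were 75.1 kb upstream of the start, 716 bp wide, and 122.0 kb downstream, 437 bp wide, both at the cap.

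ID3 encodes the inhibitor that restrains E protein activity in lymphocytes and is often mutated, as TCF3 is, in Burkitt lymphoma. It spans 1.86 kb on the minus strand in band 1p36.12 (chr1:23884421-23886285). The 1 region in its window covered the gene start (chr1:23885712-23886349). It was 638 bp wide, and its score of 645 was above that of 11.8% of the list. The next regions lay 131.7 kb away on the upstream side, 813 bp wide with a score of 750, and 190.4 kb away on the downstream side, 1424 bp wide and at the cap. Of the 3 regions over a gene start, those of TCF12 and ID2 were thus at the cap and that of ID3 was not.

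Over the 2 ID windows there were 14.7 regions per Mb, and over the 3 E protein windows 14.2 per Mb. The first value rests on 3 regions and the second on 16, of which 12 belong to TCF4. Their closeness depended on the flank: at 25 kb the values were 28.8 per Mb over the ID windows and 15.4 per Mb over the E protein windows. On chromosomes 1 to 22 and X the list held 7.72 per Mb. With flanks of 50 kb the spread among the single genes was wide, with 0 at TCF3, 8.51 at TCF12, 9.82 at ID3, 19.5 at ID2 and 23.4 at TCF4. The order of ID2 and TCF4 turned with the flank, since ID2 held 38.1 and TCF4 25.9 per Mb at 25 kb, and 19.8 and 19.6 per Mb at 100 kb. Next to the mean of its own chromosome, ID2 stood at 2.23 times, TCF12 at 1.68 times and ID3 at 1.25 times. At 100 kb, ID3 stood below its chromosome, at 0.632 times. The chromosome means were taken over the whole length, with centromeres and any unassembled stretches. No such ratio was computed for gene windows in general, so these ratios and that of TCF4 do not set the genes apart from others.

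As a set, the 19 regions had a smaller median width than the list and a smaller share at the score cap. Their median width was 541 bp, against 756 bp in the rest of the list, and 12 of 19 were narrower than the median of the list. At the cap were 7 of 19 (36.8%), against 60.1% of all regions. Within the regions at the cap, the median was 804 bp at the 5 genes and 953 bp in the rest of the list. Below the cap it was 519.5 bp at the 5 genes and 556 bp in the rest. The median score below the cap was 797.5 at the 5 genes and 731 in the rest. Exact binomial 95% intervals, which take the 19 regions as independent, ran from 16.3% to 61.6% for the share at the cap and from 476 to 804 bp for the median width. They served only to label the alternative settings given at the end, and no comparison with the list is drawn from them. Since 12 of the 19 regions share 1 gene, the regions are not independent, and the intervals do not measure a spread between genes or cultures. Neither difference was tested, and neither is read as a trait of these genes.

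**Figure D3:**
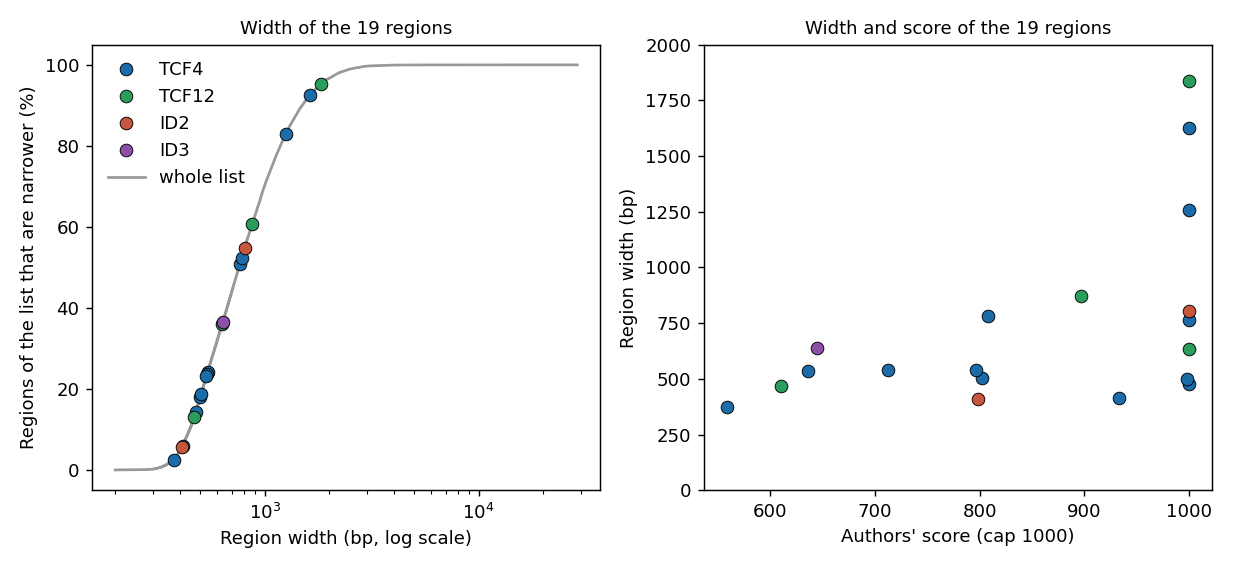
The left panel shows the width of each of the 19 regions in bp (x axis, log scale) and the percentage of the list that is narrower (y axis), with the whole list as a grey line; the right panel shows width in bp against the authors' score. Most points lie in the lower part of the grey line, and the 3 regions wider than 1000 bp, from TCF12 and TCF4, are all at the score cap.

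Regions at the 5 genes mostly stood alone. Another region lay within 10 kb of 5 of the 19 (26.3%), which are the group at the end of TCF4 and the pair at ID2. In the whole list this held for 37.6%, so most listed regions also stood alone. The difference was not tested and is not read as a trait of these genes. The distance of 10 kb was set after the data were seen, and a slightly longer one gave the same group, whereas 5 kb gave 0 groups. Of the 19 midpoints, 15 lay inside a gene span, which were the 12 of TCF4 and 1 each at TCF12, ID2 and ID3. The share of the whole list inside gene spans was not computed, so this is a count only. The next protein-coding genes in the RefSeq table are TXNL1 and CCDC68 for TCF4, ZNF280D and CGNL1 for TCF12, RNF144A and KIDINS220 for ID2, and RPL11 and E2F2 for ID3, upstream and downstream in that order. No region was assigned to them. ID1 and ID4, which also belong to the ID family, were not analysed here.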

How the data were processed

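A single list without a header was deposited by the authors, with 1 score per region. The score is the authors' own, on a scale that is not stated. Per the submitters' processing notes, the build was hg19 and the tools, named without roles, were MACS2 2.1.0, BWA 0.7.13, bedtools 2.24.0, Trim Galore 0.3.3, SAMtools 0.1.19, CASAVA 1.8.4 and Picard 1.92. A shift of reads for the transposase is not mentioned in them.

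Regions were assigned by midpoint, and start positions were converted to count from 1. The gene spans came with the choice of genes. The assignment was tested on simulated data. Chromosome lengths and bands of hg19 came from circlize 0.4.16. Promoter windows and neighbouring genes came from RefSeq tables of GRCh38.p14 (all 5 symbols matched), whose coordinates were not set against the list. Python 3.11.15, numpy 2.4.6, pandas 2.3.3, scipy 1.17.1 and matplotlib 3.10.9 were used.

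The genes and the comparisons were chosen with earlier results of these data known. All regions are named for TCF12, ID2 and ID3. For TCF4 the rule named the region nearest to the start, the widest at the cap and the lowest in score, and the second wide region and the group of 3 were added after their values were seen. A planned comparison of the proteins was not run, since no protein sequences were used here. With 1 group and 1 list, no test between samples was made.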

Additional observations from a re-analysis of the deposited data

How the results depend on the processing

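Of 25 alternatives over 7 results, 19 left the value the same and 6 moved it. One of them, joining at 10 kb, was chosen after seeing the data and gave 1 group. A count or density was called the same within 1.5 times, and the share at the cap and the median width within an exact binomial 95% interval (16.3% to 61.6%, and 476 to 804 bp). Those intervals are wide and came from the same 19 regions, so this label is a loose one. With only regions at the cap, 2 values lay just at a limit and were called the same. They were a median width of 804 bp, against 541 bp, and 2 gene starts with a region within 1 kb, against 3. Keeping only regions at the cap left 7 regions, 5.33 per Mb over the E protein windows, 4.89 per Mb over the ID windows and 0 groups of 3 or more. Joining at 5 kb also gave 0 groups. With flanks of 25 kb the ID windows held 28.8 regions per Mb, since the same 3 regions fell in shorter windows. These changes follow from how the settings were built. The count of 19 ran from 18 to 21 with other flanks. TCF3 held 0 regions under each alternative run, which was fixed in advance because its nearest regions lay beyond the flank of 100 kb. No paired analysis was possible because both replicates share 1 score per region. For the same reason neither replicate was left out. Depth is unknown, and both depth and the filters read from the name of the list limit what a missing region can show.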
